A study of Danio rerio with 32 samples.

Results

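Transcripts of 9 digestive enzyme genes of the exocrine pancreas were followed through dissected eyes and brains of wildtype zebrafish (Danio rerio). The genes are the trypsinogen genes prss1, prss59.1 and prss59.2, the amylase gene amy2a, the carboxypeptidase A genes cpa1, cpa4 and cpa5, the elastase gene ela2 and the chymotrypsinogen gene ctrb1. They were matched by gene name in a table of 32520 genes, and 8 of the 9 were above 0 in at least 1 library, while ctrb1 was listed at 0 in all 32. The genes were chosen by their FPKM differences between groups of eyes, so their values in eyes are given without a test. Whether brain values also entered the choice is not known, and earlier results of these data were known when genes and tests were chosen. The p-values and counts in brains below are therefore a description and not independent support.

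The study exposed embryos from 0.75 to 120 hours post fertilization to 12.5 µM PFNA (perfluorononanoic acid, a persistent perfluorinated fatty acid) in 0.1% DMSO, or to 0.1% DMSO alone. Some embryos had a daily cycle with 14 h light and 10 h dark (LD), and others spent all 24 h in darkness (DD). The sample labels and title name PFNA, whereas the series' design text names PFHxS. Eyes and brains were then dissected, giving 8 groups of 4 libraries: LD DMSO, LD PFNA, DD DMSO and DD PFNA in each tissue. Every group therefore carries DMSO and the wildtype genotype, and the comparisons ask how photoperiod and PFNA, alone and together, relate to transcript levels. The labels do not say how many embryos made a library, nor whether replicates came from separate clutches, so p-values measure only the spread between these samples.

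Acinar cells of the exocrine pancreas make digestive enzymes, many of them as inactive precursors, and release them through a duct into the intestine. Trypsin, once cut from its precursor, activates the other precursors, carboxypeptidases trim amino acids from the ends of peptides, elastase and chymotrypsin cut within proteins, and amylase breaks starch. In zebrafish the organ lies in the trunk beside the anterior intestine. Eye and brain are not known as digestive organs, and these transcripts are widely used to mark acinar cells.

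The libraries held 8.83 to 16.1 M (mega) fragments assigned to genes, and the mitochondrial share ran from 4.66% to 10.0%. The library labelled brain DD PFNA replicate 3 carried an eye profile, with 1283 FPKM of rho (rod opsin) against at most 7.74 FPKM in the other brains, and 3.77 FPKM of mbpa (myelin basic protein). It was left out of every comparison, so DD PFNA brains have 3 libraries. Summed over 10 eye markers, eyes held 7370 to 17683 FPKM and the other brains 11.2 to 40.4 FPKM. Values are FPKM, fragments per kilobase of gene scaled for library size by the authors, so levels can be compared between genes.

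The genes lie in a few places in the deposited annotation, for which no genome build is named. The trypsinogen genes are on chromosome 16: prss1 (ENSDARG00000042993) at 25080764 to 25085327 on the minus strand, prss59.1 (ENSDARG00000079274) at 26012569 to 26013851 and prss59.2 (ENSDARG00000073742) at 26017360 to 26018694, both on the plus strand. The start of prss59.2 is 3509 bases from the end of prss59.1, and reads shared between such near copies could be divided between them, so their separate values are uncertain. On chromosome 25, all on the minus strand, cpa4 (ENSDARG00000043722) spans 16582172 to 16589461, cpa1 (ENSDARG00000030915) spans 18448186 to 18454016 and cpa5 (ENSDARG00000021339) spans 18459924 to 18470695. The gap between cpa1 and cpa5 is 5908 bases. On the plus strand, amy2a (ENSDARG00000013856) spans 15612755 to 15626972 of chromosome 2, ela2 (ENSDARG00000056744) spans 21376290 to 21381734 of chromosome 8 and ctrb1 (ENSDARG00000090428) spans 35075847 to 35079299 of chromosome 7. None of the 9 overlaps another gene of the table.

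Summed over the 9 genes, the enzyme transcripts made up between 0.00104% and 0.0439% of the fragments of a library. In LD DMSO the sums of replicates 1 to 4 were 20.2, 105, 25.8 and 25.7 FPKM in eyes and 35.2, 18.7, 14.0 and 18.5 FPKM in brains. In DD DMSO they were 334, 273, 227 and 75.7 FPKM in eyes and 411, 349, 312 and 58.7 FPKM in brains. DD DMSO brains therefore lay wholly above LD DMSO brains, whereas in eyes the LD DMSO replicate at 105 FPKM lay above the DD DMSO replicate at 75.7 FPKM.

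With PFNA, eye and brain sums overlapped under LD and did not overlap under DD. LD PFNA sums were 54.9, 25.5, 68.9 and 27.8 FPKM in eyes and 24.5, 12.7, 31.7 and 10.7 FPKM in brains. DD PFNA sums were 107, 244, 60.2 and 234 FPKM in eyes but 27.3, 14.6 and 25.5 FPKM in brain replicates 1, 2 and 4. DD PFNA brains thus lay within the range of LD brains, while 3 of the 4 DD PFNA eyes lay above every LD eye and the eye at 60.2 FPKM did not. The left-out library, labelled as a brain, held 160 FPKM.

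Setting eye and brain libraries of the same replicate number side by side, the sum was higher in the eye in 11 of 15 pairs. Under LD the eye was higher in 3 of 4 DMSO pairs and 4 of 4 PFNA pairs, with median ratios of 1.61 and 2.21. Under DD it was higher in 1 of 4 DMSO pairs and 3 of 3 PFNA pairs. Within DD, the ratio of eye to brain was 0.728 to 1.29 with DMSO and 3.93 to 16.7 with PFNA, with no overlap. In DD DMSO the sums fell in the same replicate order, 1, 2, 3 and 4 from high to low, in eyes and in brains. The sum of replicate 4 was far below the other 3 in both tissues. By gene, only amy2a, prss1 and prss59.1 had that order in both tissues, and ela2 in eyes was highest in replicate 4, at 5.22 FPKM. In the other groups the order of the sums differed between the tissues. The labels do not say that equal numbers mark the same embryos.

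**Figure D1:**
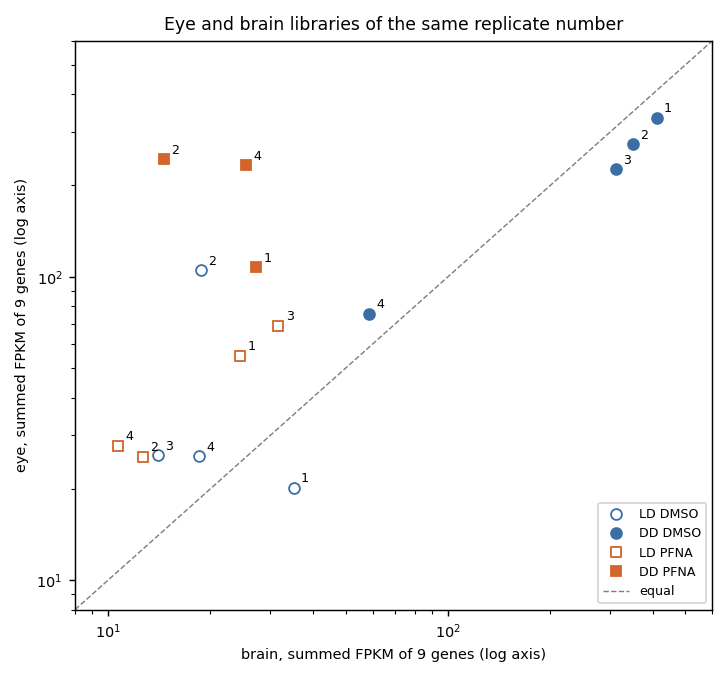
Summed FPKM of the 9 enzyme genes in the eye (vertical, log axis) against the brain (horizontal, log axis) library of the same replicate number, with 1 point for each of 15 pairs, its number beside it, and a dashed line of equality. The 7 PFNA pairs (squares) lie above the line, and the 4 DD DMSO pairs (filled circles) lie close to it, in the order 1, 2, 3, 4 from high to low.

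By group mean FPKM, the 3 trypsinogen genes were more abundant than the other enzymes in each of the 8 groups. In brains, prss1 read 11.6, 4.72, 5.04 and 6.30 FPKM in LD DMSO and 104, 83.6, 81.8 and 18.7 FPKM in DD DMSO. It read 7.89, 4.47, 10.7 and 3.65 FPKM in LD PFNA brains and 7.40, 3.45 and 5.94 FPKM in DD PFNA brains. Every DD DMSO brain was above every other brain used, and the other 3 groups overlapped. The fragments behind these values numbered 31 to 1125 in a library.

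In eyes, prss1 read 7.37, 32.2, 8.65 and 9.29 FPKM in LD DMSO, 17.7, 9.74, 17.8 and 7.24 FPKM in LD PFNA, 81.2, 62.3, 54.1 and 17.8 FPKM in DD DMSO, and 25.6, 64.7, 11.8 and 45.5 FPKM in DD PFNA. LD and DD eyes overlapped with either treatment, through LD DMSO replicate 2, DD DMSO replicate 4 and DD PFNA replicate 3. The other trypsinogen genes had similar ranges. In these eyes prss59.1 averaged 10.4 ± 10.6 FPKM in LD DMSO eyes and 54.4 ± 26.9 FPKM in DD DMSO eyes, and prss59.2 averaged 13.2 ± 10.8 and 65.2 ± 34.9 FPKM (SD, n = 4). In brains the same means were 4.29 ± 1.93 and 68.3 ± 38.3 FPKM for prss59.1, and 6.94 ± 2.45 and 78.7 ± 44.7 FPKM for prss59.2.

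The amylase gene amy2a was scarce under LD. In LD DMSO it was listed at 0 in eye replicates 1 and 4 and at 2.14 and 0.102 FPKM in eye replicates 2 and 3, while DD DMSO eyes held 26.6, 24.2, 23.1 and 4.68 FPKM. LD PFNA eyes held 1.65, 0.102, 1.15 and 0.116 FPKM, and DD PFNA eyes 7.70, 19.9, 3.21 and 9.16 FPKM. All 8 DD eyes were above all 8 LD eyes.

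Brains showed a like range of amy2a with DMSO. It read 0.529, 0.182, 0.0877 and 0.260 FPKM in LD DMSO brains and 31.4, 27.9, 24.0 and 5.42 FPKM in DD DMSO brains, a ratio of means of 83.8. LD PFNA brains held 0.0533, 0.174, 1.27 and 0 FPKM, and DD PFNA brains 2.17, 0.972 and 1.09 FPKM. DD DMSO brains lay above every other group, and both PFNA groups overlapped through LD PFNA replicate 3. The LD brain values rest on 0 to 27 fragments.

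**Figure D2:**
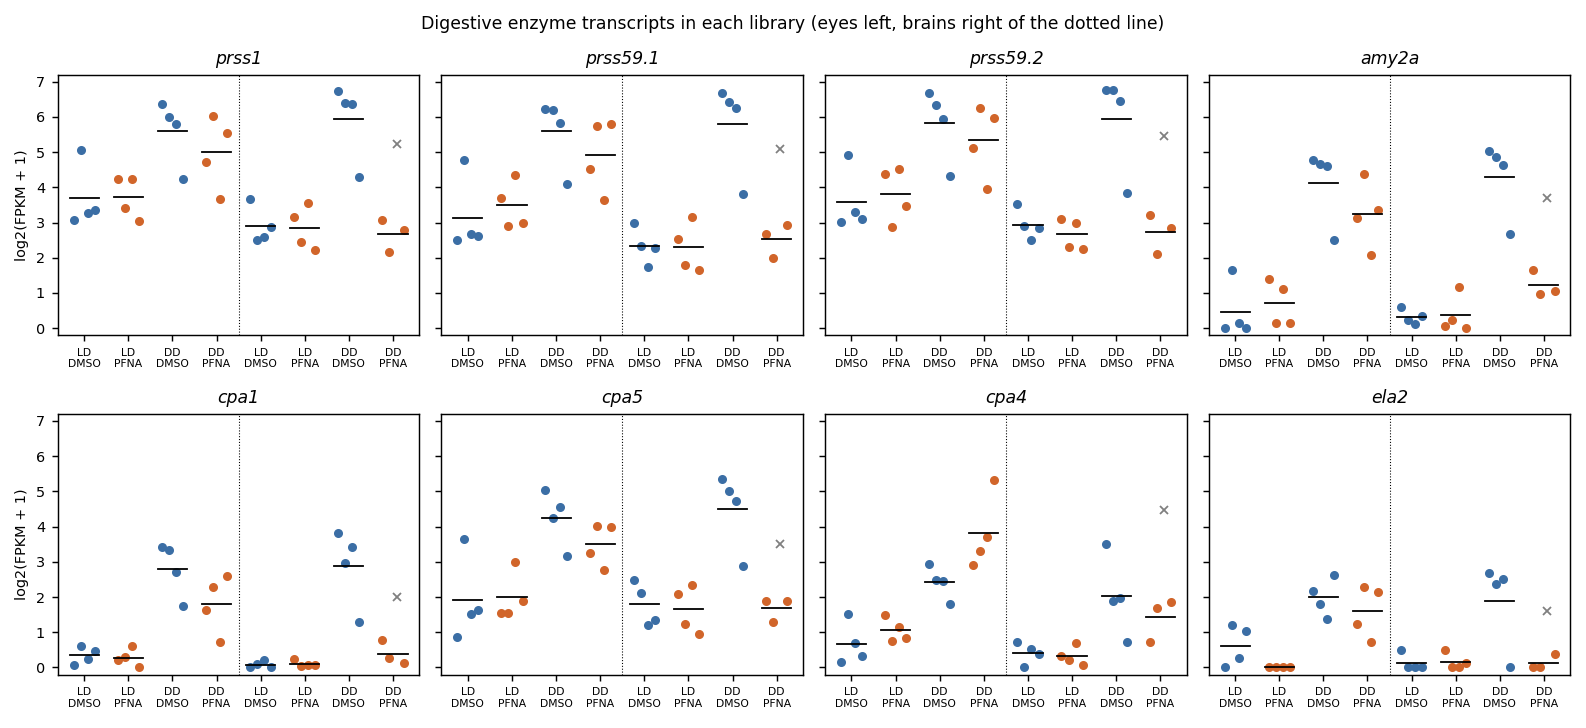
Level of each of the 8 enzyme genes above 0 as log2(FPKM + 1), with 1 point for each library, eyes left and brains right of the dotted line, DMSO in blue and PFNA in orange, and group means as black lines; crosses mark brain DD PFNA replicate 3, which is not in the means. DD DMSO brains lie above LD DMSO brains for every gene but ela2, whereas DD PFNA brains lie near the LD brains for most genes and DD PFNA eyes do not.

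Among the carboxypeptidase genes, cpa1 was nearly at 0 under LD. It read at most 0.517 FPKM in LD eyes and 0.183 FPKM in LD brains, with 0 to 12 fragments. DD DMSO eyes held 9.72, 9.10, 5.55 and 2.37 FPKM of cpa1, and DD DMSO brains 13.2, 6.78, 9.81 and 1.45 FPKM. With PFNA, DD eyes held 2.12, 3.83, 0.640 and 5.05 FPKM and DD brains 0.719, 0.197 and 0.0897 FPKM. Every DD eye exceeded every LD eye, and every DD DMSO brain exceeded all other brains.

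The neighbouring gene cpa5 was more abundant, and its ratio of mean FPKM between DD and LD eyes with DMSO was 4.87, against 23.8 for cpa1. It read 0.834, 11.6, 1.86 and 2.11 FPKM in LD DMSO eyes and 31.7, 17.9, 22.3 and 8.0 FPKM in DD DMSO eyes. LD PFNA eyes averaged 3.37 ± 2.42 FPKM and DD PFNA eyes 11.1 ± 4.61 FPKM (SD, n = 4). The photoperiods overlapped with either treatment. In brains its means were 2.71 ± 1.55, 2.41 ± 1.51 and 25.7 ± 14.1 FPKM in LD DMSO, LD PFNA and DD DMSO (SD, n = 4), and 2.27 ± 0.721 FPKM in DD PFNA (SD, n = 3).

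The third gene, cpa4, ordered the groups differently from the others. In eyes it read 0.124 to 1.87 FPKM in LD DMSO, 0.682 to 1.79 FPKM in LD PFNA, 6.61, 4.58, 4.51 and 2.51 FPKM in DD DMSO, and 6.57, 8.97, 12.0 and 38.7 FPKM in DD PFNA. It is the only one of the 8 genes with a higher mean in DD PFNA than in DD DMSO eyes (16.6 ± 14.9 and 4.55 ± 1.67 FPKM, SD, n = 4), and these groups overlapped by 1 value. In brains it read 10.3, 2.73, 2.94 and 0.659 FPKM in DD DMSO and 0.659, 2.22 and 2.66 FPKM in DD PFNA, against at most 0.643 FPKM in LD. DD PFNA replicate 4, the eye at 38.7 FPKM, also had the highest mitochondrial share, 10.0%, whose part in the result was not tested.

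The elastase gene ela2 was scarce. It read 3.49, 2.49, 1.58 and 5.22 FPKM in DD DMSO eyes, 1.34, 3.91, 0.665 and 3.40 FPKM in DD PFNA eyes, at most 1.29 FPKM in LD DMSO eyes, and was listed at 0 in all 4 LD PFNA eyes. DD DMSO brains held 5.38, 4.22, 4.71 and 0 FPKM. The value of 0 in replicate 4 is the reason why its brain groups overlap. The chymotrypsinogen gene ctrb1 was listed at 0 throughout. The skeletal muscle gene pvalb2, which is abundant in fish tissues, was also listed at 0 in all libraries used, so nothing is said of ctrb1 expression.

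Groups that did not overlap were counted for the 8 genes and for all genes tested. In eyes, 4 of 8 enzyme genes (amy2a, cpa1, cpa4, ela2) were higher in every DD than every LD library with DMSO, against 11.8% of all genes, and the same 4 were with PFNA, against 8.25%. For PFNA against DMSO in eyes, none of the 8 separated under LD (13.5% of all genes higher, 9.53% lower) or under DD (7.81% higher, 6.70% lower). Because eye values chose the genes, these shares are a description only. In brains, 7 of 8 were higher in every DD DMSO than every LD DMSO library (6.59% of all genes) and 6 of 8 were lower in every DD PFNA than every DD DMSO library (7.63%). With PFNA, only cpa4 separated DD from LD brains (14.3%), and no enzyme gene separated PFNA from DMSO brains under LD (10.9% higher, 5.99% lower). The margins of cpa4 were narrow. With PFNA its lowest DD brain held 0.659 FPKM (13 fragments) and its highest LD brain 0.629 FPKM (11 fragments). With DMSO these were 0.659 FPKM (9 fragments) and 0.643 FPKM (15 fragments). The brain counts are a description too. Their shares cover genes that reached 1 FPKM in 4 or more brain libraries, which ela2 did not. The counts of 7 and 6 include cpa1, which did so only through DD DMSO brains.

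In brains, 7 of the 9 genes reached 1 FPKM in 4 or more of the 15 libraries, the filter for testing, and were compared with limma on log2(FPKM + 1), a scale that understates the change of scarce genes. Of these, cpa1 passed only through DD DMSO brains, the group where it is high. Its filtered tests are therefore not counted as results, and it is given from the fit without the filter. Later counts that include it say so. The genes amy2a and cpa4 reached 1 FPKM in 7 and 5 libraries, so their being tested also leans on the groups where they are high. Adjustment was by Benjamini-Hochberg over all 17216 genes, and a gene was called at an adjusted p under 0.05.

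In DMSO brains the 6 tested genes other than cpa1 rose in DD, where 6.39% of all genes tested were called higher. The rise was 3.97 ± 0.42 for amy2a (log2 change ± SE, adjusted p = 8.82e-05) and 3.04 ± 0.47 for prss1 (adjusted p = 0.00087). It was 3.45 ± 0.53 for prss59.1, 3.01 ± 0.53 for prss59.2 and 2.70 ± 0.48 for cpa5 (adjusted p = 0.000911, 0.00188 and 0.00202). The smallest rise was that of cpa4, 1.62 ± 0.44 (adjusted p = 0.0214), which passed the threshold neither in a fit of only these 2 groups (0.0839) nor with brain DD PFNA replicate 3 kept (0.159). Without the filter, cpa1 and ela2 were called as well, with rises of 2.80 ± 0.40 and 1.77 ± 0.45 (adjusted p = 0.00118 and 0.0257), so that 8 of 8 enzyme genes above 0 rose, where 3.6% of all genes did. In brains, cpa1 and ela2 reached 1 FPKM only with DMSO under DD, and the 3.6% is over 27790 genes, scarce ones included.

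Under DD, 5 of these 6 genes fell in brains with PFNA, where 1.8% of all genes tested were called lower. The fall was -3.27 ± 0.50 for prss1 (log2 change ± SE, adjusted p = 0.00151), -3.25 ± 0.58 for prss59.1 (0.0037) and -3.23 ± 0.57 for prss59.2 (0.00362). It was -3.06 ± 0.46 for amy2a (adjusted p = 0.00127) and -2.81 ± 0.52 for cpa5 (0.0048). Without the filter, cpa1 fell by -2.49 ± 0.43 (adjusted p = 0.00589) and the difference of -1.77 ± 0.48 for ela2 was not called (adjusted p = 0.0667), where 0.9% of all genes fell. The change of cpa4 was -0.60 ± 0.47 (adjusted p = 0.504), and it was 0.16 ± 0.64 with brain DD PFNA replicate 3 kept. In a fit of only the 2 groups, which kept the filter, prss59.2 missed the threshold (adjusted p = 0.0591). So did cpa1 (adjusted p = 0.0632), whose filtered test is not counted as a result. The comparison shares the DD DMSO brains with the one before it, so the rise and the fall rest on the same 4 high libraries. Fewer cells holding these transcripts and less of this RNA in each cell cannot be told apart in bulk libraries. The part of tissue from other organs, whose transcripts are given below, was not tested.

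With PFNA in both arms, no enzyme gene, cpa1 included, was called between DD and LD brains by limma or with voom weights. Of all genes tested, 3.66% were called higher and 5.97% lower. Leaving cpa1 aside, only cpa4 had an unadjusted p under 0.05, with 1.09 ± 0.47 (adjusted p = 0.167). In a fit of only these 2 groups it was called (adjusted p = 0.0399). Under LD, no enzyme gene, cpa1 included, was called for PFNA against DMSO brains by limma or with voom weights (5.62% of all genes higher, 2.28% lower). None of them had an unadjusted p under 0.05. Leaving cpa1 aside, these changes lay between -0.27 and 0.05 with standard errors of 0.42 to 0.53.

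A test of whether the PFNA effect in brains differed between photoperiods, added after the data were seen, called no enzyme gene by limma, cpa1 included. Leaving cpa1 aside, every tested enzyme gene but cpa4 had an unadjusted p under 0.05. The DD effect minus the LD effect was -3.11 ± 0.62 for amy2a (adjusted p = 0.125), and adjusted p-values ran up to 0.958, for cpa4. That test called 1 of 17216 genes, or 0.00581%, as higher and none as lower. In DD eyes, described without a test, the ratio of mean FPKM with PFNA to that with DMSO was 0.436 to 0.729 for 7 genes and 3.64 for cpa4.

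**Figure D3:**
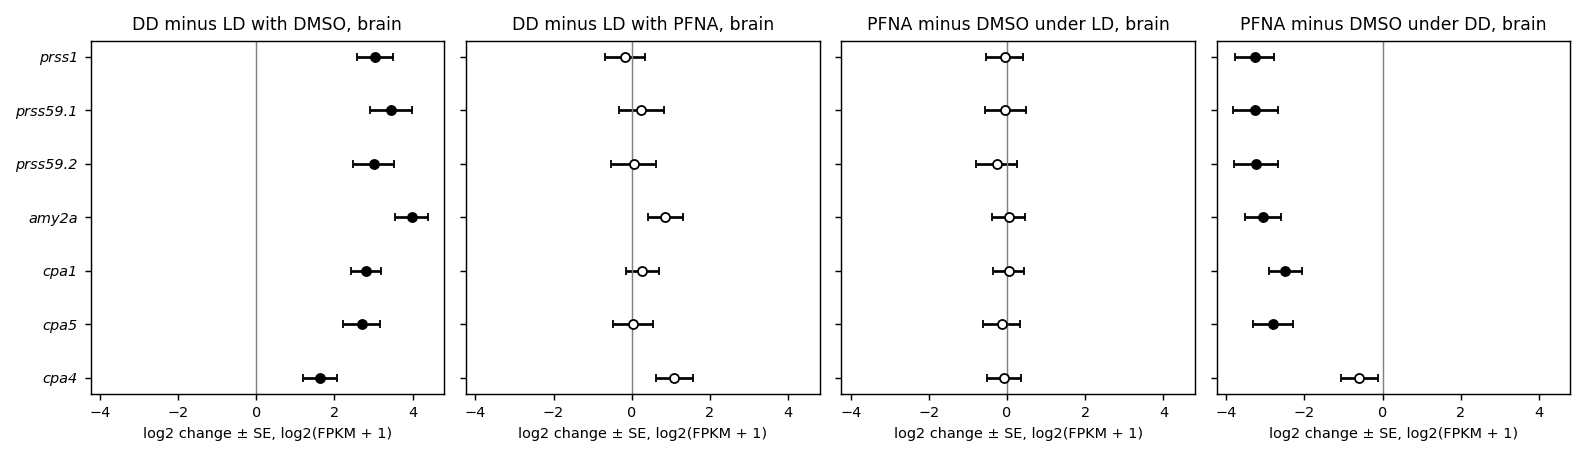
Log2 change ± SE on the log2(FPKM + 1) scale of the 7 tested enzyme genes in brains for the 4 comparisons, with filled points called at an adjusted p under 0.05 by limma. The left panel has 7 filled points to the right of 0 and the right panel 6 to the left of it, while the middle panels have none; cpa1 is shown but passed the filter only through DD DMSO brains.

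The amylase share of the enzyme transcripts separated the photoperiods. Taken as a percentage of the summed FPKM of the 3 trypsinogen genes in the same library, amy2a was 0% to 3.34% in LD eyes and 5.64% to 13.6% in DD eyes. In brains it was 0% to 4.94% in LD and 5.85% to 12.1% in DD. The ranges did not overlap in either tissue. Eye values chose the genes and brain values may have, so this is a description. DD PFNA brains read 10.3%, 9.98% and 5.85%, against 9.83% to 12.1% in DD DMSO brains, although their trypsinogen levels were in the range of LD brains. The brain values rest on few amy2a fragments under LD, as given above, and on 17 to 52 in DD PFNA. The brain libraries on either side of the gap, LD PFNA replicate 3 at 4.94% and DD PFNA replicate 4 at 5.85%, held 27 and 28. LD DMSO eyes held 0 to 57 and LD PFNA eyes 2 to 37.

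The same percentage for cpa5 overlapped between photoperiods, at 3.85% to 13.3% in LD eyes, 7.84% to 15.5% in DD eyes, 9.57% to 22.1% in LD brains and 10.5% to 14.7% in DD brains. For cpa1 it was at most 1.70% in LD eyes and 1.25% in LD brains, and 1.69% to 4.48% in DD eyes and 0.480% to 4.23% in DD brains, so that it overlapped slightly. For ela2 it overlapped too, at 0% to 4.72% in LD eyes and 0.933% to 9.86% in DD eyes. In brains ela2 was at most 2.00% under LD and 1.93% under DD. Among the trypsinogen genes, prss1 read 0.912 to 1.83 times prss59.1 in LD eyes (median 1.48) and 0.832 to 1.23 times in DD eyes (median 1.07). In brains this was 1.18 to 2.13 times under LD (median 1.66) and 0.896 to 1.44 times under DD (median 1.085). These ranges overlapped in both tissues.

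The percentage for cpa4 had its highest values in DD PFNA libraries, although 1 library of each tissue lay within the DD DMSO range. It was 2.13% to 4.74% in DD DMSO eyes and 8.09%, 4.67%, 31.8% and 23.8% in DD PFNA eyes. In DD PFNA brains it was 3.12%, 22.8% and 14.2%, against 0.989% to 3.30% in DD DMSO brains. It stayed at or below 3.62% in all LD libraries. Replicates 3 and 4 of the eyes, and 2 and 4 of the brains, hold the high values.

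**Figure D4:**
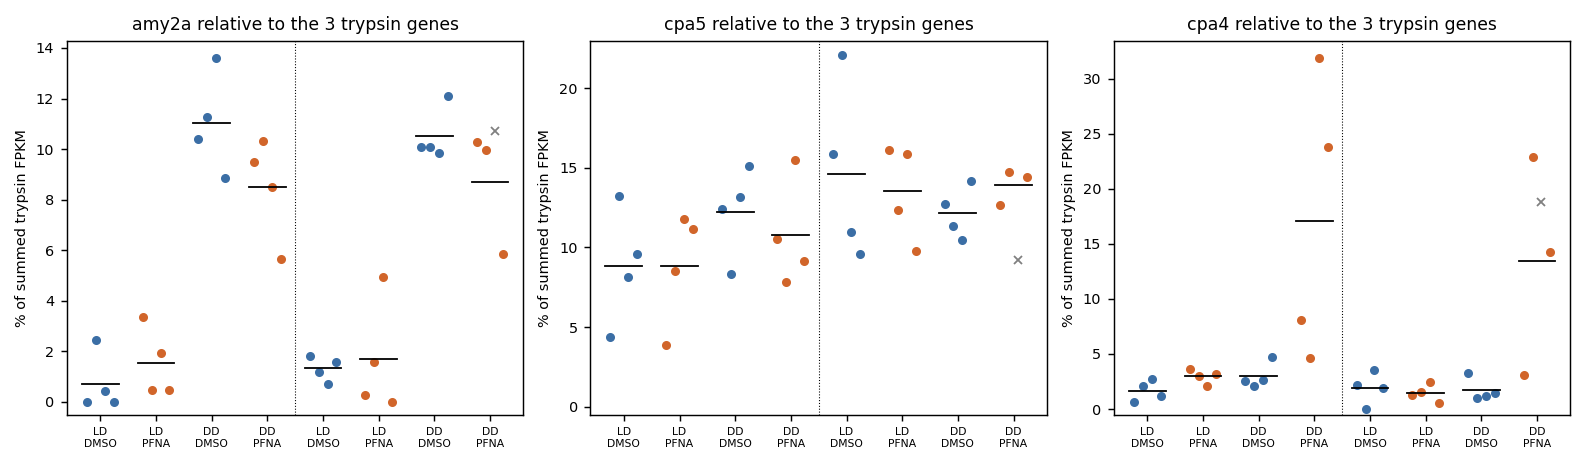
FPKM of amy2a, cpa5 and cpa4 as a percentage of the summed FPKM of the 3 trypsinogen genes in the same library, eyes left and brains right of the dotted line, with group means as black lines and a cross for the left-out brain library. DD libraries lie above LD libraries for amy2a in both tissues, cpa5 overlaps throughout, and the values of cpa4 above 5% belong to DD PFNA libraries.

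Of 34 other genes of the exocrine secretory pathway, 22 matched the table, in 23 rows, and 10 passed the filter in eyes and 4 in brains. They include further elastase genes (cela1.6, ela2l, ela3l), the chymotrypsin-like gene ctrl and the bile salt-stimulated lipase gene cel.1. This list was drawn up with earlier results known, and its counts are a description. In brains, all 4 tested rose in DD with DMSO: cela1.6 by 2.55 ± 0.43, ela3l by 2.91 ± 0.54, ela2l by 2.61 ± 0.53 and ctrl by 2.11 ± 0.46 (log2 change ± SE, limma adjusted p = 0.00156, 0.00263, 0.00481 and 0.00721). All 4 fell with PFNA under DD, cela1.6 by -2.84 ± 0.47, ctrl by -2.75 ± 0.50, ela3l by -2.90 ± 0.58 and ela2l by -2.16 ± 0.57 (adjusted p = 0.00244, 0.0046, 0.00782 and 0.038). With voom weights, and in a fit of only the 2 groups, 1 of the 4 falls was called.

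None of the 4 was called between DD and LD brains with PFNA or between PFNA and DMSO brains under LD, by limma or with voom weights, and 0 of 4 had an unadjusted p under 0.05 in either. Without the filter, 9 of 20 rose in DD DMSO brains, where 3.6% of all genes did, and with PFNA under DD 8 fell (0.9% of all genes). Both counts include cel.1, pdia2, c6ast4, sycn.2 and cpb1, which reached 1 FPKM only in DD DMSO brains, the group where they are high. The shares are over 27790 genes, scarce ones included. The enzymes were chosen by eye values and this list with earlier results known, so its p-values in eyes are a description. In eyes, 3 of 10 rose in DD with DMSO (6.22% of all genes), namely cel.1 by 1.57 ± 0.38, cela1.6 by 1.84 ± 0.50 and ctrl by 1.44 ± 0.42 (limma adjusted p = 0.0153, 0.0269 and 0.037). That count ran from 1 to 6 when each library was left out in turn. It fell to 1 without any of LD DMSO replicates 1, 3 and 4 or DD DMSO replicates 1, 2 and 3, and rose to 6 without DD DMSO replicate 4 and to 5 without DD PFNA replicate 4. None of the 10 was called by limma or with voom weights in DD against LD eyes with PFNA (7.04% of all genes higher, 9.05% lower), where 3 had an unadjusted p under 0.05, though 2 were called without DD DMSO replicate 4 or DD PFNA replicate 3. None was called with PFNA under DD (6.54% higher, 4.36% lower), where 1 had an unadjusted p under 0.05, though 2 were called without DD DMSO replicate 4 and 1 without DD PFNA replicate 4. Nor was any called with PFNA under LD (7.05% higher, 3.7% lower), where 0 of 10 had an unadjusted p under 0.05. The median change of the 10 in DD against LD eyes with DMSO was 1.27, against 0.03 over all genes tested.

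Genes whose levels most resembled the enzymes were ranked by Pearson correlation with the mean log2(FPKM + 1) of the enzyme genes, over the libraries of a tissue. The libraries share group, depth and dissection, so this is a description. Over 16 eye libraries and 16493 genes, the nearest were si_dkey-14d8.6 (r = 0.96), cel.1 (0.96), apoda.2 (0.95), cela1.6 (0.95), ctrl (0.93), ela3l (0.92) and lxn (0.91), followed by atg13, si_ch211-263p13.7 and tacr3l. Over 15 brain libraries and 15606 genes they were apoda.2 (r = 0.98), cela1.6 (0.98), si_dkey-14d8.6 (0.98), ela3l (0.98), zgc_92137 (0.97), ctrl (0.96), ela2l (0.96) and cd36 (0.92), followed by akap8l and tigara. Of the enzymes themselves, cpa4 was least like the mean of the others in both tissues (r = 0.74 in eyes and 0.79 in brains), ela2 reached 0.79 and 0.95, and the other 6 ranged from 0.94 to 0.99.

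The gene apoda.2, whose name places it among apolipoprotein D genes, read 28.9, 35.3, 20.7 and 5.82 FPKM in DD DMSO eyes and 47.9, 36.4, 42.0 and 3.54 FPKM in DD DMSO brains. It read at most 2.90 FPKM in LD libraries of either tissue and 2.00, 0.619 and 1.81 FPKM in DD PFNA brains. Its lowest DD DMSO library was replicate 4 in both tissues, as for the summed enzymes.

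Transcripts of other organs were measured in the same libraries. Summed over 17 intestine genes, DD DMSO brains held 47.9, 88.0, 8.92 and 5.97 FPKM and LD DMSO brains 2.22 to 4.76 FPKM, while DD PFNA brains held 2.70 to 3.69 FPKM. DD DMSO eyes held 42.0, 15.2, 57.1 and 9.98 FPKM, LD DMSO eyes 7.47 to 12.4 FPKM and DD PFNA eyes 6.87 to 14.7 FPKM. DD DMSO brains lay above the other brains used, and DD DMSO eyes overlapped LD DMSO eyes. Replicate 4 was the lowest DD DMSO library in both tissues, as for the summed enzymes, while replicates 1, 2 and 3 were not in the order of the summed enzymes. The acidic chitinase gene chia.2, a member of the intestine list, read 12.3, 31.3, 1.94 and 1.12 FPKM in DD DMSO brains and at most 1.23 FPKM in the other brain groups. Of 2 intestine genes tested in brains, 1 rose in DD with DMSO, where 6.39% of all genes did. Of 6 tested in eyes, 2 rose in DD with DMSO (6.22% of all genes) and 2 fell with PFNA under DD (4.36%). None was called in eyes in DD against LD with PFNA (7.04% higher, 9.05% lower) or with PFNA under LD (7.05% higher, 3.7% lower). These counts are a description.

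Liver and plasma protein genes (19 matched) summed to 24.9 to 169 FPKM in all libraries but DD PFNA eye replicate 1, which held 1174 FPKM and 107 FPKM of the enzymes. The sums overlapped between brain groups, at 24.9 to 63.2 FPKM in LD DMSO, 31.9 to 109 FPKM in DD DMSO and 32.6 to 52.5 FPKM in DD PFNA. Of these sums, rbp4 alone made 15.7 to 53.4 FPKM. The next most abundant gene in brains, apoa2, averaged 4.81 ± 2.79, 18.5 ± 21.2 and 3.42 ± 4.44 FPKM (SD) in the same order. The scarcer gene tfa averaged 1.34 ± 0.438, 3.16 ± 2.66 and 0.928 ± 0.649 FPKM (SD) there. Among these groups, every gene of the list but rbp4, cp, hamp and hpxa had its highest mean in DD DMSO brains. The sums, led by rbp4, do not show this. Of 6 liver and plasma protein genes tested in brains, 1 fell in DD against LD with PFNA, where 5.97% of all genes did. Of 7 endocrine pancreas hormone genes the sum was at most 4.60 FPKM in every library, ghrl was listed at 0 in all of those used, and the insulin gene ins averaged at most 0.223 FPKM in a group.

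Of 9 acinar transcription factors, ptf1a, which is also made in retina and hindbrain, averaged 2.28 to 4.37 FPKM over the groups, rbpjl at most 0.466 FPKM, bhlha15 at most 0.797 FPKM, and hnf1ba was listed at 0. The 4 acinar factors tested in brains were ptf1a, rbpjb, nr5a2 and xbp1. They already averaged 2.28, 8.42, 5.24 and 38.6 FPKM in LD DMSO brains, where the enzymes are low. None rose in DD with DMSO and 1 fell (9.68% of all genes lower), xbp1, with a mean of 22.0 FPKM in DD DMSO brains. The scarce factors rbpjl, gata6, bhlha15 and pdx1 were not tested there. In LD DMSO, DD DMSO and DD PFNA brains, rbpjl averaged 0.0089, 0.466 and 0.0854 FPKM, and gata6 0.0401, 0.691 and 0.219 FPKM. The DD DMSO means had SDs of 0.504 and 0.702 FPKM (n = 4). In the same order, bhlha15 averaged 0.13, 0.29 and 0.30 FPKM, and pdx1 0.0996, 0.125 and 0.0819 FPKM. Sums of 16 epidermis genes (30.5 to 1004 FPKM in brains), 18 skeletal muscle genes (37.3 to 558 FPKM in brains) and 10 red blood cell genes (11.7 to 72.5 FPKM in brains) overlapped between DD DMSO and LD DMSO brains except for red blood cells, 12.8 to 23.8 against 26.3 to 44.1 FPKM. Between PFNA and DMSO brains the muscle and epidermis sums also overlapped under each photoperiod. With PFNA under LD, 2 of 15 muscle genes tested in brains were called lower (2.28% of all genes), with a median log2 change of -1.46. With PFNA under DD, 13 epidermis genes had a median of -0.87 and none was called lower (1.8% of all genes). These counts are a description. The part of these other organs in the enzyme results was not tested.

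**Figure D5:**
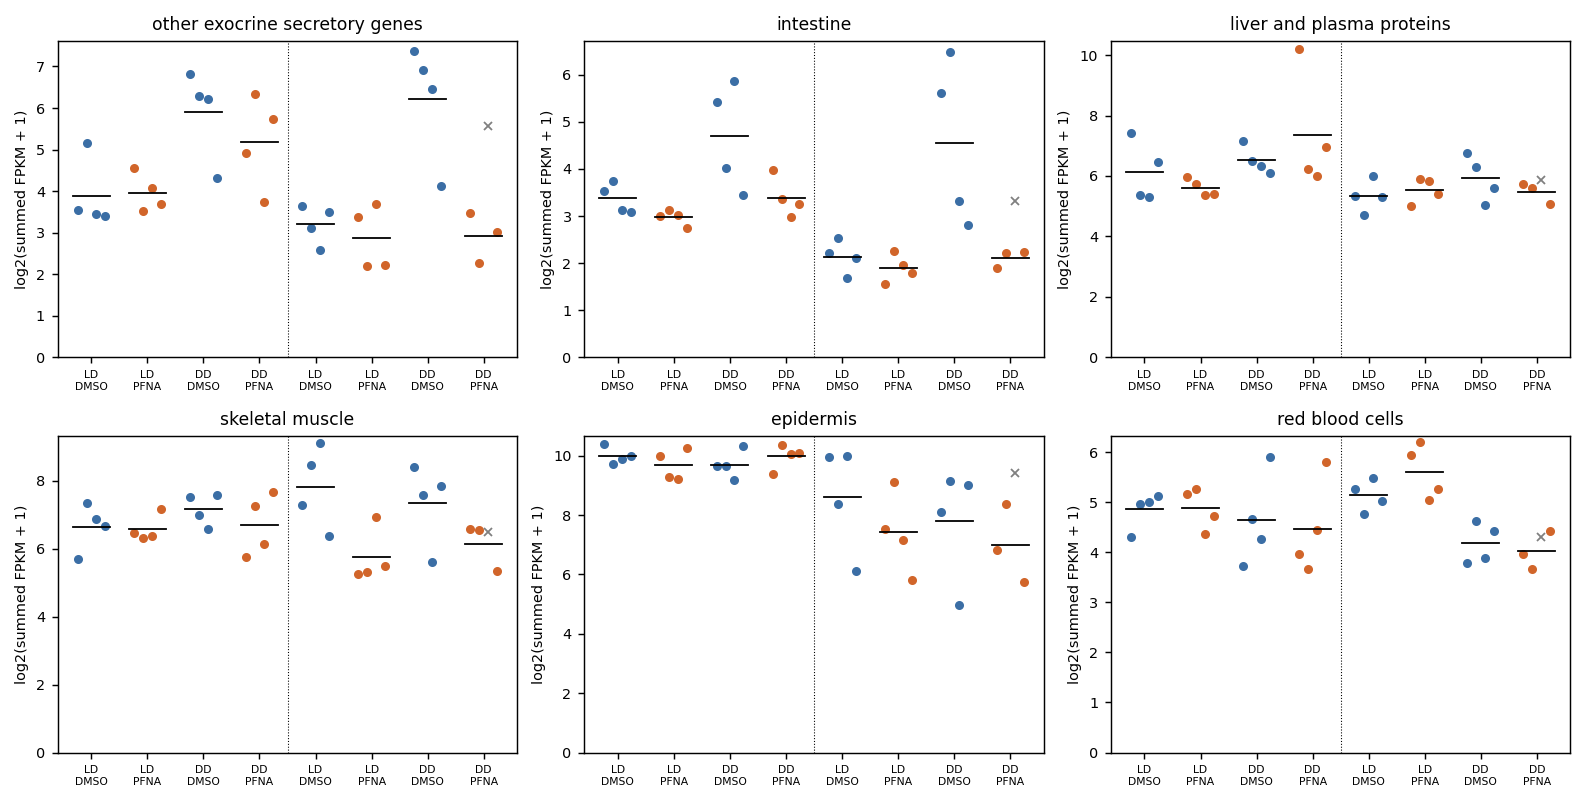
Summed level of 6 gene lists as log2(summed FPKM + 1), with 1 point for each library, eyes left and brains right of the dotted line, DMSO blue and PFNA orange, group means as black lines and the left-out brain library as a cross. The other exocrine genes are high in DD DMSO brains and low in DD PFNA brains like the 9 enzymes. The intestine sums of DD DMSO brains also lie above those of the other brains used, while the muscle and epidermis sums of DD DMSO and LD DMSO brains overlap.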

How the data were processed

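The deposited table gives FPKM for 32520 genes in 32 libraries, computed by the authors. Among tools, HISAT2 2.0.5 and featureCounts 1.5.0-p3 appear, per the submitters' processing notes; no build or annotation is named. Per the labels' protocols, directional and non-directional preparation are both described without saying which was used. Multiplying FPKM by gene length gave whole multiples of a constant step per library for 100% of values (tolerance 0.05), from which fragments and depth were recovered. The table's 2 pooled columns were not used.

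Groups were compared by limma 3.58.1 (R 4.3.3, trended eBayes, two-sided) on log2(FPKM + 1). Genes needed 1 FPKM or more in 4 or more libraries, and each tissue had its own fit with 1 mean per group: 16 eye libraries and 18204 genes, and 15 brain libraries and 17216 genes. P-values were adjusted by Benjamini-Hochberg over all genes of a contrast. The method was checked on simulated data. Alternatives were dropping the filter, a pseudocount of 0.1, scaling by median ratios, the replicate number as a block, voom weights on recovered fragments, only the 2 groups compared, brain DD PFNA replicate 3 kept, and each library left out.

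The 9 genes, the lists (155 entries, 138 matched by gene name), tests and naming rule were chosen with earlier results of these data known. The rule names all 9 genes, up to 4 called genes of the exocrine list per comparison, 10 genes of like pattern per tissue, and counts, summed ranges and markers at 0 for the other lists. Chosen after their values were seen were apoda.2 and chia.2 for values by library, and the acinar, hormone and liver genes named. One item of the exocrine list is not reported here.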

Additional observations from a re-analysis of the deposited data

Results flagged for a closer look

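Of 55 groups of 4 libraries examined for the enzyme genes, 11 held a value whose gap to the nearest library was above Dixon's 95% critical value. For independent sets of normally distributed values, chance gives about 1 in 20. The enzyme genes vary together across libraries and some values rest on few fragments, so the 11 cannot be judged against that rate. LD DMSO eye replicate 2 was far above the other 3 libraries for 5 genes: prss1 at 32.2 FPKM (others 7.37 to 9.29), prss59.1 at 26.3 FPKM (4.70 to 5.40), prss59.2 at 29.3 FPKM (7.11 to 8.77), cpa5 at 11.6 FPKM (0.834 to 2.11) and amy2a at 2.14 FPKM (0 to 0.102). DD DMSO eye replicate 4 was far below the others for amy2a, at 4.68 FPKM (23.1 to 26.6).

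DD PFNA eye replicate 4 was far above the others for cpa4, at 38.7 FPKM (6.57 to 12.0). LD PFNA eye replicate 3 was far above for cpa5, at 6.96 FPKM (1.90 to 2.69). In brains, LD PFNA replicate 3 was far above for amy2a, at 1.27 FPKM (0 to 0.174). LD PFNA brain replicate 1 held 0.183 FPKM of cpa1 (0.0399 to 0.0540), and LD DMSO brain replicate 1 held 0.404 FPKM of ela2, which was listed at 0 in the other 3; these 2 values rest on 3 and 6 fragments. The library labelled brain DD PFNA replicate 3, which is in no comparison, held 21.0 FPKM of cpa4, above the 0.659 to 10.3 FPKM of DD DMSO brains.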

How the results depend on the processing

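In brains, leaving out each library in turn kept the counts of enzyme genes at 7, 0, 0 and 6 for DD against LD with DMSO, DD against LD with PFNA, PFNA under LD and PFNA under DD, counts that include cpa1, which passed the filter only through DD DMSO brains. With only the 2 groups fitted, 1 enzyme gene in place of 0 was called in DD against LD with PFNA. Of the other exocrine genes in brains, the 4 called in DD against LD with DMSO became 9 without the filter. The genes added there, and in the next comparison, reached 1 FPKM only in DD DMSO brains. The 4 called with PFNA under DD became 8 without the filter, 1 with voom weights, 1 with only the 2 groups and 2 with brain DD PFNA replicate 3 kept, and 3 to 4 with a library left out. In eyes, the 3 in DD against LD with DMSO became 1 to 6 with a library left out. The 0 in DD against LD with PFNA became 1 with a pseudocount of 0.1 and 0 to 2 with a library left out, and the 0 with PFNA under DD became 0 to 2 with a library left out. The cause was not tested.

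Reversals touched only changes that were not called. In DD against LD brains with PFNA, prss1 became 0.47 with brain DD PFNA replicate 3 kept, and with a library left out prss1 ran from -0.38 to 0.0899, prss59.2 from -0.20 to 0.35 and cpa5 from -0.21 to 0.25. For PFNA in LD brains, amy2a became -0.27 with a pseudocount of 0.1 and -0.79 with voom weights. With a library left out, amy2a there ran from -0.23 to 0.17, prss1 from -0.30 to 0.18, prss59.1 from -0.34 to 0.17, cpa1 from -0.0057 to 0.0804, cpa4 from -0.21 to 0.0323 and cpa5 from -0.37 to 0.10. For PFNA in DD brains, cpa4 became 0.16 with replicate 3 kept.

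The count of all genes called moved with the fit. In brains it was 2766 for DD against LD with DMSO (1079 with replicate 3 kept, 1113 with only the 2 groups), 1658 with PFNA (2938 with only the 2 groups, 675 without DD PFNA replicate 2), 1360 for PFNA under LD (407 with replicate 3 kept, 841 without LD PFNA replicate 4) and 1140 under DD (419 with only the 2 groups, 709 with replicate 3 kept, 556 without DD PFNA replicate 2). In eyes it was 2288 (3546 with only the 2 groups, 1261 to 3996 with a library left out), 2928 (348, 1462 to 3558), 1956 (3108, 1304 to 3192) and 1983 (734, 1332 to 2549) in the same order.

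Within a tissue, replicate numbers did not consistently pair samples of different groups: the correlation of same-numbered deviations across genes ran from -0.296 to 0.271. With the replicate block the enzyme counts, cpa1 included, were again 7, 0, 0 and 6. Those of the other exocrine genes were 4, 0, 0 and 4 in brains and 4, 0, 0 and 0 in eyes. Between eye and brain, a library correlated best with its own number in 4 of 4 libraries of LD DMSO, LD PFNA and DD DMSO, with r of 0.0586 to 0.197, and in 2 of 3 of DD PFNA, a hint from the data and not the design. Scaling by median ratios kept the median change of all genes within 0.02 of 0 in brains. Depth limits the scarce genes: amy2a, cpa1 and cpa4 in LD rest on few fragments, and intervals for counting error were not drawn.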
